A study of Arabidopsis thaliana with 6 samples.

Results

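Trimethylation of histone H3 at lysine 27 (H3K27me3), the product of the Polycomb complex PRC2, lies in plants over many developmental and tissue-specific genes while they are silent. Trimethylation of H3 at lysine 4 (H3K4me3) sits at the start of transcribed genes. In Arabidopsis, H3K27me3 domains often span 1 gene or a short row of neighbours, so a map in bins of fixed width shows where such genes stand close together. The regions described here are the 298 of 5959 bins of 20 kb that held the most H3K27me3 in leaf chromatin. The 5 nuclear chromosomes of TAIR10 were cut into bins from base 1, the bases of each bin under the authors' H3K27me3 domains were counted, and the top 5% of bins were taken. The members were thus chosen by their H3K27me3, which is given below as a description only. They made up 5.96 Mb, and held 18.4% of all H3K27me3 bases.

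All material came from young leaves of wild-type Columbia-0 plants, grown in soil with 8 h of light and 16 h of dark at 22.5 °C. Each mark was profiled in 2 ChIP samples, next to 1 sample of input DNA and 1 of mRNA, and no genotype or treatment was compared. The files hold 1 list of domains per mark, with 15863 H3K27me3 and 19276 H3K4me3 domains, so no value has an error between replicates and the depth of the ChIP libraries is unknown. The mRNA file gives the mean read depth over exons for 20764 genes, from 1 to 22244.1 with a median of 6.74. A gene that it does not contain is called unlisted below. Unlisted means that no depth was given, not that the gene was silent.

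No test was made, because the members were picked from the single H3K27me3 list and the mRNA has 1 library. Intervals are 95% and cover counting error over genes or bins only. Genes that share a domain are not independent, so these intervals are too narrow. In leaf tissue as a whole, a gene silent in most cells but active in a few cannot be told apart from one weakly active in all of them. Likewise, bases under both marks may carry them in the same cells or in different ones.

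A member held between 9000 and 19400 bases under H3K27me3, with a median of 10700, against a median of 2100 in the 5661 other bins. The mark came in several pieces. The median member touched 7 domains, and the widest domain that it touched measured 3900 bases at the median. Only 13 members touched a domain of 10000 bases or more, and 64 touched none of 3000 bases or more. The limit fell on a tie. At 9000 covered bases there were 37 bins, of which 20 were taken in chromosome order and 17 were not, and 278 bins lay above. Just inside, chr2:9320001-9340000 had 9000 H3K27me3 bases, 850 H3K4me3 bases and 3 listed genes of 4. Just outside, chr2:14280001-14300000 had the same 9000 H3K27me3 bases, 2100 H3K4me3 bases and 3 listed genes of 6.

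**Figure D1:**
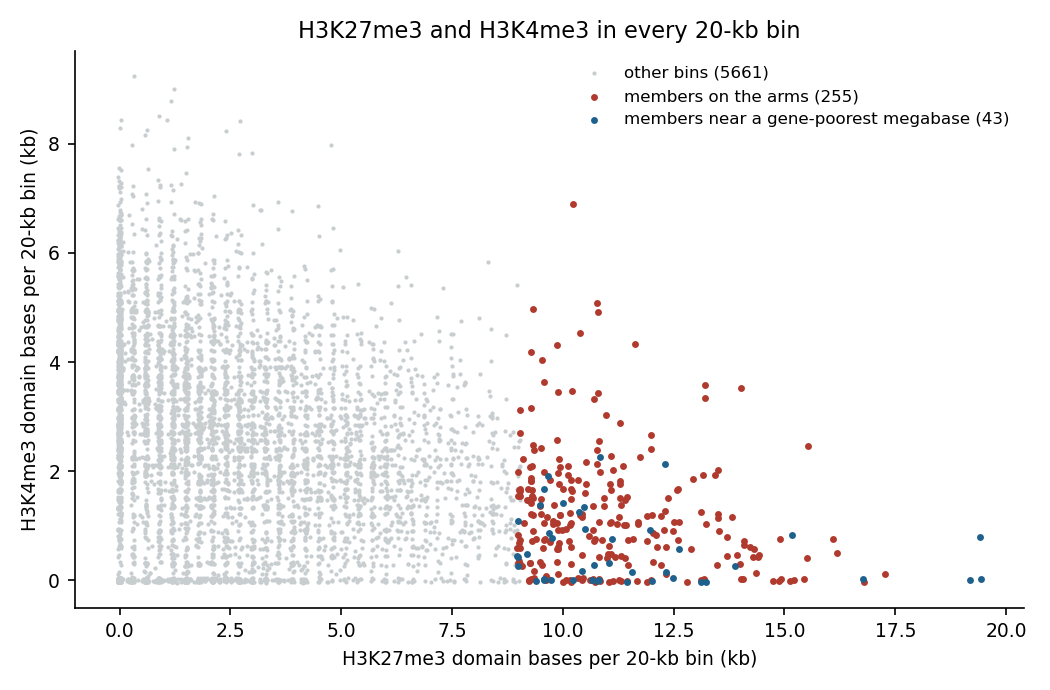
Each point is a 20-kb bin, with its bases under H3K27me3 domains (x axis, kb) and H3K4me3 domains (y axis, kb), spread by at most 0.04 kb. The red and blue points right of the limit at 9 kb are the 298 members (43 of them within 2.5 Mb of the gene-poorest 1-Mb window of their chromosome, in blue, and 255 on the arms, in red), and only 1 of them is among the 298 bins richest in H3K4me3.

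Members were found on every chromosome, with 90, 45, 48, 51 and 64 on chromosomes 1 to 5. They formed 244 separate runs, of which 202 were a single bin and 36 were a pair. Of the 298 members, 96 (32.2%) lay next to another member. The longest run was chr1:15080001-15200000, with 6 bins and 73.7% of its bases under H3K27me3. It held 1 protein-coding gene, AT1G40104, which was unlisted and had no H3K27me3, and 8 pseudogenes. Next came chr4:8720001-8820000, with 5 bins and 63.1% covered, and chr4:11040001-11120000, with 4 bins and 52% covered. Both of these lay in gene-bearing sequence on the long arm.

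H3K4me3 covered 5.57% of the bases of the members and 12.95% of those of all other bins. In the 298 bins that ranked next for H3K27me3 it covered 8.89%. The median member had 900 H3K4me3 bases, against 2550 in the other bins, and 57 members (19.1%, 14.8 to 24.1) had none at all, against 9.50% of the other bins. The difference was present outside H3K27me3 domains too, where H3K4me3 covered 7.03% of the bases in members and 13.5% of those in other bins. Across all 5959 bins, the rank correlation of H3K27me3 with H3K4me3 bases was -0.29 (Spearman, a description, since neighbouring bins share domains and gene content). Within the 298 members it was -0.21.

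Part of the H3K4me3 in members lay under H3K27me3. The share was 44.1% of their H3K4me3 bases, while H3K27me3 covered 55.7% of all their bases. Elsewhere 9.40% of H3K4me3 bases lay under H3K27me3, which covered 13.0% of the bases there, so these shares follow the coverage by which the members were chosen. Over all members and over all other bins, H3K4me3 was per base the sparser inside H3K27me3, with 4.41% of such bases in members and 9.39% elsewhere. Within 2.5 Mb of the gene-poorest 1-Mb windows the order was the reverse, as given below. Of the 524 H3K4me3 domains centred in members, 257 (49.0%) lay wholly inside an H3K27me3 domain, against 9.92% of the 18752 others. These enclosed domains were small in both places, with a median width of 450 bases, and 5.84% of them in members and 5.05% elsewhere had a score at or above the median of the authors' list. The 232 H3K4me3 domains of members that touched no H3K27me3 had a median width of 750 bases, the same as the 15896 such domains elsewhere, and 47.0% against 55.1% of them had a score at or above that median. Enclosed and free H3K4me3 domains therefore differed more from each other than either kind differed between members and other bins.

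The members held 1309 of the 27444 protein-coding genes, which is 4.77% of the genes in 5.002% of the bases. That made 4.39 genes per bin (4.16 to 4.64), against 4.62 in the other bins. Fewer of them had mRNA in the table. Over all bins 72.9% of protein-coding genes were listed, and in the members 524 of 1309 were, or 40.03% (37.4 to 42.7), against 74.5% elsewhere. H3K4me3 on at least 150 bases was carried by 64.4% of all genes and by 435 genes of the members, or 33.2% (30.7 to 35.9), against 65.9% elsewhere. A depth of 10 or more was reached by 28.3% of all genes and by 165 genes of the members, or 12.6% (10.9 to 14.5). Where genes were listed, their median depth was 3.59 (2.93 to 4.96) in members and 6.99 elsewhere. With unlisted genes at 0, the mean of log2(depth + 1) was 1.07 in members and 2.39 elsewhere, a difference of -1.32, which rests mostly on the unlisted genes, since among listed genes alone it was -0.53. The genes were also shorter, with a median body of 1736 bases in members and 2096 elsewhere.

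The listed share was low on each chromosome. It ran from 36.0% on chromosome 4 to 45.3% on chromosome 1 in the members, and from 71.2% to 75.7% in the other bins. Of the 298 members, 70 had no listed gene, of which 45 did hold protein-coding genes and 25 held none. In 19 members every gene was listed, and 121 had at least 1 gene with a depth of 10 or more. These counts of bins by listed or deep genes were not made for the other bins. The median bin had 2 listed genes in members and 4 in the other bins. Its deepest gene had a median depth of 5.05 in members and 18.95 in the other bins, with 0 where no gene was listed.

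With all bins ranked by H3K27me3 and split into 20 groups, the listed share was 40.03% in the first group, 52.4% in the second, 60.3% in the third and 85.01% in group 17, the last in which every bin had H3K27me3. H3K4me3 covered 5.57%, 8.89% and 9.73% of bases in the first 3 groups and 15.5% in group 17. The 889 bins with no H3K27me3 make up nearly all of groups 18 to 20 and are ordered there only by chromosome and start. Those 3 groups had 85.1%, 88.9% and 89.5% of genes listed and 14.9%, 17.3% and 17.3% of bases under H3K4me3. The drop from the second group to the members was the largest step between neighbouring groups for both measures.

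**Figure D2:**
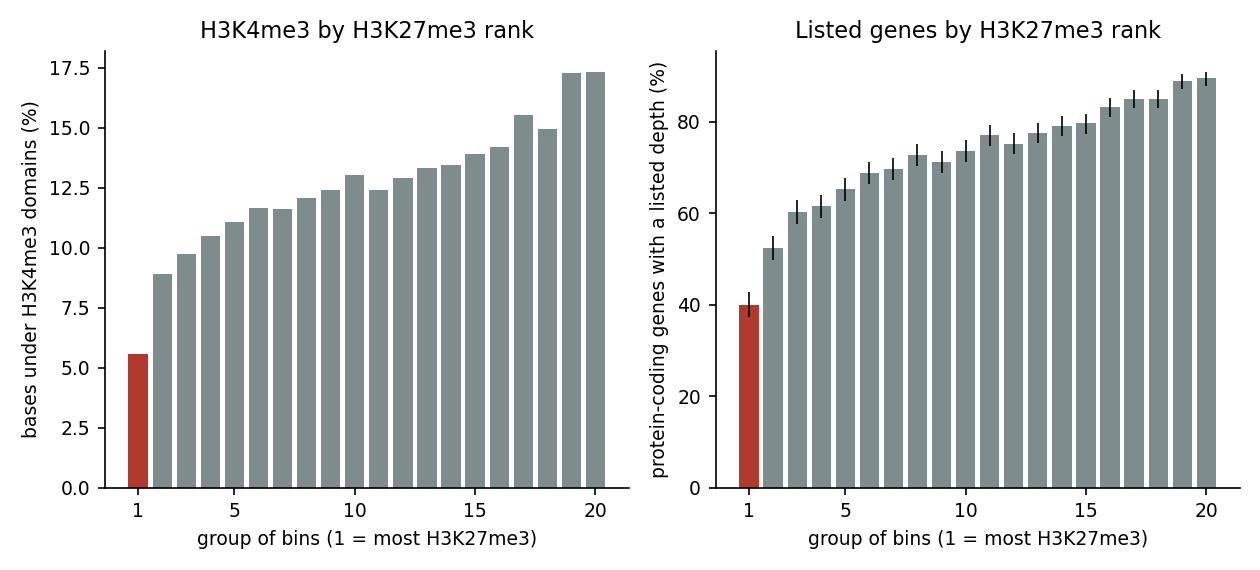
All bins ranked by H3K27me3 and split into 20 groups (x axis, 1 = the members, in red). Left, bases under H3K4me3 domains (%), from 5.57 in the members to 15.5 in group 17. Right, protein-coding genes with a listed depth (%, bars are 95% exact binomial intervals), from 40.03 to 85.01. Groups 18 to 20 hold nearly only bins without H3K27me3, so their order is not one of H3K27me3.

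Bins directly beside a member that were not members themselves numbered 471. The 96 members that adjoin another member are not among them, and the rule keeps the H3K27me3 of the 471 at or under the limit, so their lower coverage is fixed in part by the choice. They had 17.7% of their bases under H3K27me3, 12.2% under H3K4me3 and 71.7% of their genes listed. At 40 kb these values were 13.7%, 12.9% and 71.7%, and at 200 kb or more they were 12.1%, 12.8% and 75.3%. A bin beside a member that was not itself a member thus resembled the distant bins in H3K4me3 and in listed genes far more than it resembled the member. Both measures changed with H3K27me3 across the ranked groups, so leaving out adjoining members may set part of these steps too. How much was not tested.

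**Figure D3:**
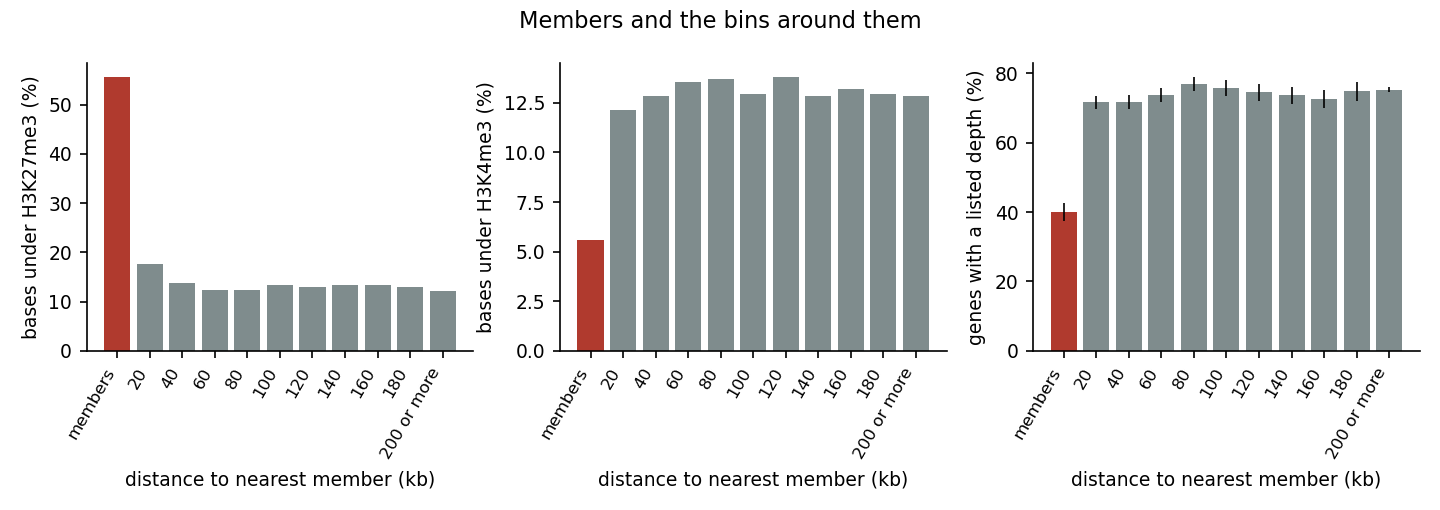
Bins by distance to the nearest member (x axis, kb), with bases under H3K27me3 (left, %), bases under H3K4me3 (middle, %) and genes with a listed depth (right, %, 95% exact binomial intervals). The other groups hold no members, so the fall in H3K27me3 is fixed in part by the choice, and the steps in the other measures may be too. The members (red) stand at 55.7, 5.57 and 40.03, and the bins 20 kb away already stand at 17.7, 12.2 and 71.7.

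A gene's own marks separated the genes of the members into very different classes. H3K27me3 without H3K4me3 was carried by 829 of the 1309 genes (63.3%), against 18.7% of the genes elsewhere. Of these 829 genes, 20.4% (17.7 to 23.3) were listed, with a median depth of 1.22, where the lowest depth in the table is 1. Both marks were carried by 226 genes (17.3%, against 9.79% elsewhere), of which 59.7% (53.0 to 66.2) were listed at a median depth of 2.88. H3K4me3 alone was carried by 209 genes (16.0%, against 56.2% elsewhere), of which 98.1% were listed at a median depth of 10.9 (9.31 to 12.5). Neither mark was carried by 45 genes (3.44%, against 15.4% elsewhere). The bins were chosen by H3K27me3, so these class shares follow in part from the choice.

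Genes with the same marks were more alike between members and other bins than the bins as a whole. Elsewhere, 26.96% of genes with H3K27me3 alone were listed, at a median depth of 1.33, and 98.2% of genes with H3K4me3 alone, at a median depth of 9.15 (8.93 to 9.37). The clearest gap was in genes with both marks, of which 80.7% (79.1 to 82.2) were listed elsewhere against 59.7% in members. Such genes had a median of 84.8% of their body under H3K27me3 in members and 48.8% elsewhere. Grouped by covered body, 18.6% of member genes with at least 90% of the body under H3K27me3 were listed, against 20.5% elsewhere. Between 50% and 90% the shares were 36.7% (32.0 to 41.7) and 44.2% (42.4 to 46.0). If each of 4 cover groups of the members had the listed share that it has elsewhere, 43.8% of the members' genes would be listed, against the 40.03% counted and the 74.5% of other bins. The same calculation for genes with H3K4me3 gives 35.7%, against 33.2% counted and 65.9% elsewhere.

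**Figure D4:**
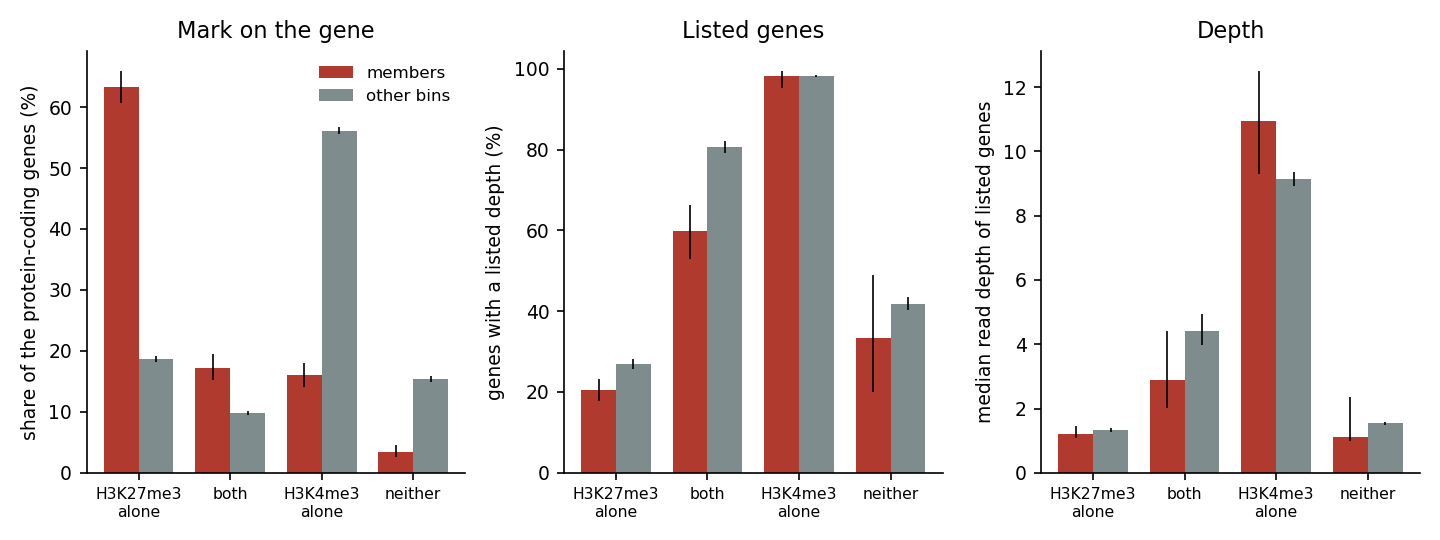
Protein-coding genes by the marks they carry (x axis), in members (red) and other bins (grey), as share of genes (left, %), share with a listed depth (middle, %) and median read depth of listed genes (right), each with its 95% interval. Genes with H3K4me3 alone are listed in 98.1% and 98.2% of cases, while those with both marks are listed in 59.7% and 80.7%.

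Active genes also stood inside these regions. Of the 298 members, 147 (49.3%) had at least 1 gene with H3K4me3 alone, with at most 4 in 1 member. Such genes were nonetheless rarer in members, at 16.0% of genes against 56.2% elsewhere. Of the 165 genes with a depth of 10 or more, 112 (67.9%) had no H3K27me3, against 89.6% of the 7601 such genes elsewhere, and 14 had at least 90% of their body under it. In 59 members a gene with a depth of 10 or more and no H3K27me3 shared the bin with an unlisted gene wholly under the mark. In 111 of the 273 members that had genes, every gene carried H3K27me3, which follows in part from the choice of bins by this mark. The bin counts of this paragraph were not made for the other bins.

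The deepest gene of the members was RBCS3B (AT5G38410), which encodes a small subunit of Rubisco, with a depth of 4152, 1200 bases of H3K4me3 and no H3K27me3. It is a near-identical copy of its neighbours RBCS1B and RBCS2B, so reads may be shared between them and its depth is uncertain. PSBTN (AT3G21055), a small subunit of photosystem II, had a depth of 1891. CPN60A, a chloroplast chaperonin subunit, had 319. SKP1, a core subunit of SCF ubiquitin ligases, had 174, RPS10B, a ribosomal protein, had 114, and STV1, a ribosomal protein of the large subunit, had 109. Of the 10 deepest genes, 8 had H3K4me3 alone with no H3K27me3 base in the body. AT1G51200 (depth 169), one of these, stood in chr1:18960001-19020000, a run of 3 members in which 11 of 12 genes carried H3K27me3 and only 2 were listed. Its neighbours there included PLT2, a regulator of root stem cells, and WIP5, both unlisted.

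The other 2 of the 10 were well covered by H3K27me3. TGG2, a myrosinase that hydrolyses glucosinolates and is made in scattered idioblast cells, had a depth of 371, although H3K27me3 covered 94.2% of its body and no H3K4me3 was called there. MLP43, a major latex protein homologue, reached 192, with H3K27me3 over its whole length and 450 bases of H3K4me3. MLP28, of the same family, had a depth of 93.3, also under H3K27me3 throughout and with no H3K4me3, while MLP31 and MLP34 in the same bin were unlisted. The next genes with at least 90% of the body covered were much shallower. AT2G32870 had 42.1, RAB18, a dehydrin induced by abscisic acid, had 37.0, and GPAT8, an acyltransferase of cutin synthesis, had 34.4. ABCG19, a half-size ABC transporter, had 21.9, with 2100 bases of H3K4me3 on a body 94.1% under H3K27me3.

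Some of the bins richest in H3K27me3 held no genes and others held tandem arrays. The first 3, chr1:15100001-15120000, chr1:15120001-15140000 and chr4:2920001-2940000, had 19400, 19400 and 19200 covered bases and no protein-coding gene. The next, chr3:7720001-7740000 and chr3:7740001-7760000, had 17300 and 16800 covered bases and belonged to a run of 3 members with 21 genes. In that run 20 genes carried H3K27me3 and 10 were wholly under it. Only 3 were listed, AT3G21950 at a depth of 36.1, AT3G22060 at 11.1 and AT3G22070 at 5.31. Of the 10 bins with the most H3K27me3, 8 had at most 1 listed gene, and chr1:12220001-12240000 and chr5:21040001-21060000 had 2 each. The first of these 2 held CYP76C6 (depth 5.33) and CYP76C5 (depth 1), cytochromes P450 of a subfamily that oxidises monoterpenols. The second held GA20OX2, a gibberellin 20-oxidase, which was unlisted with 70.5% of its body covered. In chr3:17020001-17040000, AT3G46320, which had no H3K27me3, was the only listed gene of 4, at a depth of 30.02, and its neighbour MEE39 was unlisted with 91.2% of its body covered. None of the 3 genes of chr4:11680001-11700000 was listed, among them WRKY31, a transcription factor gene 96.2% covered by H3K27me3 and carrying 450 bases of H3K4me3.

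The run at chr4:8720001-8820000 contained the genes of a triterpene cluster, in which an oxidosqualene cyclase makes the triterpene skeleton and neighbouring cytochromes P450 modify it. Of its 16 genes, 14 carried H3K27me3 and 7 were wholly under it. The cyclases PEN1 and BARS1 had 77.9% and 54.7% of their bodies covered and were unlisted. CYP705A1, CYP705A2 and CYP705A3 were wholly covered and unlisted, and CYP705A4 was wholly covered with the lowest depth, 1. Also unlisted was the acyltransferase gene BIA1, wholly covered with 450 bases of H3K4me3. At the right end of the run the pattern changed within a single bin. PUX5 and AT4G15415 had no H3K27me3, H3K4me3 on 900 and 1050 bases, and depths of 8.95 and 12.2.

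Members also held most of the other triterpene genes. Of 14 genes in the list of triterpene clusters, 11 lay in members, all 14 carried H3K27me3, and the only listed one was CYP705A4. The marneral cluster had its cyclase MRN1 (87.5% covered) and its neighbours CYP705A12 (96.7%) and CYP71A16 (74.8%) in members. Of the thalianol cluster, the cyclase gene THAS1 (79.3%) and CYP708A2 (65.5%) were in a member. CYP705A5 (100%) lay in a bin with 8700 covered bases, just under the limit, as did AT5G47980 (92.8%). AT5G47950 (36.6%) lay in a bin ranked 3187, with 2100 covered bases.

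The run at chr4:11040001-11120000 was a tandem array with a different look. Of its 27 genes, 25 carried H3K27me3, but the median gene was only 67.4% covered and 3 were wholly under the mark. AT4G20720, at its right end, was the only listed gene, with a depth of 6.62, no H3K27me3 and 900 bases of H3K4me3. Of the 27 genes, 18 shared 1 of 3 body lengths exactly, so many may be near-identical copies. Reads that match several copies may have been dropped or split in the authors' mapping, and the coverage and depth of single genes in the array are uncertain.

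Some members combined much H3K27me3 with much H3K4me3. Only chr3:3940001-3960000 was also among the 298 bins richest in H3K4me3, with 10200 H3K27me3 and 6900 H3K4me3 bases, of which 3750 were shared. All 10 of its genes carried H3K4me3. AT3G12390 (depth 56.4), ELC (16.3), NF-YC11 (13.9) and ARP5 (4.89) had no H3K27me3. AT3G12420, AT3G12430, AT3G12440 and AT3G12470 were wholly under H3K27me3, carried 750, 600, 660 and 300 bases of H3K4me3 and were unlisted. AT3G12460, also wholly covered and with 750 bases of H3K4me3, was listed at a depth of 1.21, and AT3G12410, 83.6% covered, at 1. In chr4:14520001-14540000, ACHT2, an atypical thioredoxin of the chloroplast, had a depth of 77.0 and no H3K27me3, while AT4G29630 and AT4G29640 were wholly covered by it and unlisted although they carried 522 and 600 bases of H3K4me3. AT4G29650, wholly covered with 600 bases of H3K4me3, was listed at a depth of 1.

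In the CYP71A bin chr3:17880001-17900000, with 10800 H3K27me3 and 4950 H3K4me3 bases, 7 of 8 genes were listed. CYP71A22 (depth 16.5, 94.6% covered by H3K27me3, 1650 bases of H3K4me3) and CYP71A21 (depth 16.3, no H3K27me3) had similar depths with unlike marks. CYP71A25, CYP71A24 and CYP71A23 had depths of 2.03, 2.30 and 1, with 81.2%, 87.8% and 96.0% of their bodies covered. These are related genes in tandem, so some reads may be shared.

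The genes with the most H3K4me3 in members showed both states. AT2G23200 had 2550 H3K4me3 bases and LRX3, a leucine-rich extensin of the cell wall, had 2400, both without H3K27me3 and at depths of 14.95 and 13.4. ABCG12, a transporter of cuticular wax, had 2100 bases, 8.44% of its body under H3K27me3 and a depth of 72.7. AT5G17980 had 2250 bases of H3K4me3, 81.4% of its body under H3K27me3 and a depth of only 1.58.

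Of the 5 bins with the most genes, chr3:3940001-3960000, described above, had 6 of 10 genes listed and the most H3K4me3 of any member, and the other 4 had few listed genes. In chr4:11840001-11860000, with 12 genes, 2 were listed, and 7 carried H3K4me3. In chr1:20140001-20160000, 2 of 10 genes were listed and none carried H3K4me3. This bin held the GDSL lipase genes GLIP2 and GLIP3, unlisted, and GLL22, with a depth of 1. In chr3:21580001-21600000, RTM3, which restricts long-distance movement of potyviruses, was the only listed gene of 10, with a depth of 1.36. In chr1:8360001-8380000 none of 9 genes was listed or carried H3K4me3.

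Among developmental regulators, AP1 and UFO, which set floral organ identity, lay in members with 98.8% and 100% of the body under H3K27me3, and both were unlisted. They were 2 of 15 floral identity genes, all 15 of which carried H3K27me3, so 13 lay in bins with less of it. STM, which maintains the shoot meristem, and CUC2, which sets organ boundaries, were 2 of 9 meristem and boundary genes, 99.5% and 100% covered and unlisted. Of 12 seed maturation genes, all with H3K27me3, FUS3 (depth 1.22), ABI3 (unlisted) and the storage protein gene CRU3 (unlisted) lay in members, each wholly covered. PLT2 (93.7% covered, unlisted) was 1 of 8 root genes, and YUC2, an auxin synthesis enzyme (wholly covered, depth 1.498), was 1 of 14 auxin genes. FLC, the repressor of flowering that is silenced by Polycomb in the cold, was the 1 flowering-time gene of 10 in a member, with 89.0% of its body under H3K27me3, 300 bases of H3K4me3 and a depth of 4.20. None of 5 endosperm genes lay in a member although all 5 carried the mark. Of 14 photosynthesis genes, 1 lay in a member, and that gene, RBCS3B, had no H3K27me3 itself. These lists are short, and against 4.77% of all genes in members a count of 1 or 2 has little weight.

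Myrosinases were 3 of 5 in members. TGG2 is described above. Its homologues TGG4 and TGG5, which the gene table names BGLU34 and BGLU35, were wholly under H3K27me3 and unlisted. TGG1, the guard-cell and idioblast myrosinase, lay in a bin ranked 455 and was the deepest of the 5, with a depth of 1029 on a body wholly under H3K27me3 and no H3K4me3. The depths of myrosinase genes with H3K27me3 over nearly the whole body thus ran from unlisted to 1029.

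Gene families were counted by patterns in the symbols of the gene table, and 34.5% of the genes in members and 37.96% of the others have a symbol. Among the 22 families with at least 10 genes, terpene synthases had the highest share in members, 7 of 16 or 43.8% (19.8 to 70.1), in 7 bins. Of these, TPS04 had a depth of 1.09 and TPS12 of 3.06, and TPS13 and TPS21 were unlisted. The 7 also include AT4G20210 and the unlisted cyclases PEN1 and BARS1, which lie in the triterpene run described above. The count is thus not independent of that run, and the share without PEN1 and BARS1 was not computed. Genes matched as glycosyl hydrolases followed with 7 of 24 (29.2%, 12.6 to 51.1) in 4 bins. These 7 were CEL3 and genes with GH9 symbols. The BGLU beta-glucosidases in members were not in this count, so the share does not stand for all glycosyl hydrolases. Then came lipid transfer proteins with 2 of 11 (18.2%, 2.28 to 51.8) in 1 bin, an interval that includes the 4.77% of all genes. Cytochromes P450, which oxidise hormones and specialised metabolites, were the largest contributor, with 34 of 250 or 13.6% (9.61 to 18.5), spread over 19 bins. Of these 34 genes, 16 were listed. CYP86A2, which oxidises fatty acids for cutin, was the deepest of them at 101.3, with 37.8% of its body under H3K27me3 and 1800 bases of H3K4me3. CYP79F1, an enzyme of aliphatic glucosinolate synthesis, reached 91.6 with H3K27me3 over 82.3% of its length and no H3K4me3. Its tandem copy CYP79F2 had 3.97 and 93.6% covered, and reads may be shared between them.

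Among transcription factors, homeobox genes had 14 of 95 in members (14.7%, 8.30 to 23.5), each in its own bin. Of the 14, 7 were listed, none deeper than 2.51, the value of WOX4, a regulator of vascular cambium. WRKY factors had 7 of 72 (9.72%, 3.999 to 19.0) and NAC factors 8 of 104 (7.69%, 3.38 to 14.6), with deepest values of 2.45 and 1.46, while pectin lyases and polygalacturonases had 1 of 10. Their intervals include the 4.77% of all genes. At the other end no member held any of 31 proteasome genes, 34 bHLH genes, 23 kinesin genes or 13 pentatricopeptide genes. The same held for 11 tRNA synthetase genes and 42 genes whose symbols matched cysteine-rich receptor-like kinases and DUF26 proteins. The intervals of these families include the 4.77% too, with upper limits from 8.41% to 28.5%. Genes without a symbol, such as those in the runs at chr3:7720001-7780000 and chr4:11040001-11120000, could not be counted in any family. A count of 0 thus covers named genes only and does not show that members lack the family. Ribosomal protein genes had 3 of 68 (4.41%), all listed, and STV1 and RPS10B were among the deepest genes named above.

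**Figure D5:**
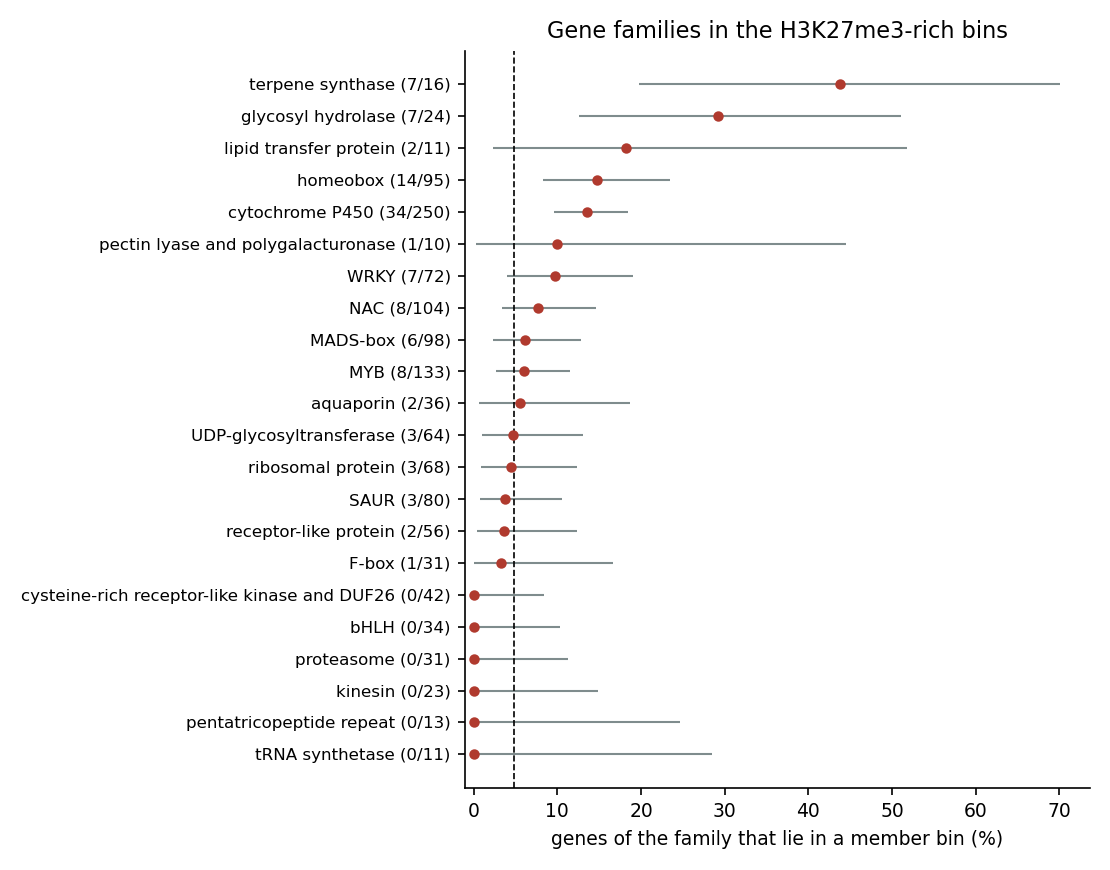
Share of each gene family that lies in a member bin (x axis, %; points, with 95% exact binomial intervals; counts in brackets). The dashed line is the 4.77% of all protein-coding genes, and the intervals of terpene synthases, glycosyl hydrolases, homeobox genes and cytochromes P450 lie above it. Terpene synthases as counted include the triterpene cyclases PEN1 and BARS1. Glycosyl hydrolases as counted in members are CEL3 and GH9 genes and leave out the BGLU genes.

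Genes were also counted by shared stems of their symbols. Of 166 stems with at least 10 genes, 85 had no gene in members and 10 had over 20% there. The stems named here were picked after their shares were seen, for high shares. Of 16 GRP glycine-rich protein genes 8 lay in members, of which 4 were listed, up to a depth of 45.6. The 8 include the oleosin-like GRP16, GRP17, GRP18, GRP19 and GRP20 of the pollen coat, which shared 1 bin. Of these oleosin-like genes only GRP18 was listed, at a depth of 1. The RALFL peptide genes had 9 of 32 in members, of which 1 was listed. The BGLU beta-glucosidases had 11 of 40 in 7 bins, of which 3 were listed, up to a depth of 27.8 for BGLU33. The SWEET sugar transporters had 3 of 15 (4.33 to 48.1%), an interval that includes the 4.77% of all genes. SWEET13, which moves sucrose towards the phloem, reached a depth of 11.3. H3K27me3 covered 86.6% of its length, and it had no H3K4me3.

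Loci other than protein-coding genes also lay in members. Transcribed pseudogenes had 86 of 926 there (9.29%, 7.496 to 11.3) and miRNA genes 23 of 326 (7.06%, 4.52 to 10.4), while tRNA genes had 16 of 625 (2.56%, 1.47 to 4.12). The interval of the miRNA genes includes the 4.77% of protein-coding genes that lay in members. Of the 23 miRNA genes, 20 were wholly under H3K27me3, which follows in part from the choice of bins by this mark. Elsewhere 77 miRNA genes were wholly under it. The largest group was MIR169i to MIR169n, a tandem array of 6 in chr3:9860001-9880000, all wholly covered. The miR169 family targets subunits of the transcription factor NF-Y. MIR169i, MIR169j and MIR169l were listed at a depth of 1, MIR169k at 4.68 and MIR169m at 5.16, and MIR169n was unlisted. These 5 with a depth, all from the same array, were the listed ones among the 23 miRNA genes of the members. That share was not below the 15.8% of miRNA genes listed elsewhere. AFB2, an auxin receptor, was in the same bin with a depth of 14.6 and 38.3% of its body covered. Also wholly covered and unlisted were MIR160b, MIR319a, MIR157a and MIR156f, precursors of miRNAs that target auxin response factors, TCP factors and, for the last pair, SPL factors.

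The position of the members along the chromosomes was compared with the gene-poorest 1-Mb window of each chromosome, which held between 9 and 43 protein-coding genes. Bins within 2.5 Mb of such a window were 21.0% of all bins, and 43 of the members were among them, or 14.4% (10.6 to 18.9). This depended on the distance. Within 1.5 Mb the shares were 9.73% of members and 12.7% of the other bins, and within 3.5 Mb they were 30.2% and 29.3%, so the order of the shares changed.

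The 43 members near these windows differed from the 255 on the arms. They held 1.14 genes per bin, against 4.94 on the arms, and a median of 3 pseudogenes, against 0. Other bins had the same contrast, with 1.77 and 5.39 genes per bin and medians of 3 and 0 pseudogenes. The windows were themselves chosen for few genes. The widest H3K27me3 domain that they touched had a median of 5700 bases, against 3600 on the arms. All 25 members with no protein-coding gene were near, as were 97.5% of the 440 other bins without genes. H3K4me3 covered 2.77% of the bases of the near members, and 79.9% of it lay inside H3K27me3. Other bins near these windows had 3.79% of their bases under H3K4me3. On the arms the values were 6.05% in members and 15.4% in other bins, so the gap in H3K4me3 was wider on the arms. In the other near bins 19.0% of the H3K4me3 lay inside H3K27me3. Per base, H3K4me3 was denser inside H3K27me3 than outside it in near members (3.84% against 1.32%). The same held in other near bins (6.27% against 3.47%), unlike in the members or the other bins taken as a whole. Of the genes, 24.5% were listed in near members and 49.3% in other near bins, against 40.6% and 76.7% on the arms. In the 25 bins without genes H3K4me3 covered 2.97% of the bases, against 1.02% in 440 other bins without genes. The share of this H3K4me3 inside H3K27me3 was 94.9% in the 25 bins and 65.8% in the 440. H3K27me3 covered 62.3% and 11.2% of their bases. Pericentromeric sequence is rich in repeats, and reads that match several places may be placed wrongly, so both marks are less certain there. The near member chr3:14180001-14200000 also holds 2 rRNA genes, AT3G41768 and AT3G41979, with depths of 619.9 and 121.1.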

How the data were processed

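Per the submitters' processing notes, Bowtie and SICER were used with the TAIR10 build; no versions are given. The authors deposited 1 domain list per mark, with a whole-number score of unstated unit that served here for ranking within 1 list alone. The use of replicates and input in the calls is not stated. For mRNA the authors deposited a signal, the mean read depth over exons, with no scaling stated and a lowest value of 1. Use of strand is not stated, and 15.2% of the genes in members overlap another gene.

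Members, gene lists, families and settings were chosen with earlier results of these data known. Bins were cut from base 1 in steps of 20 kb, the end column was read as the last base, and ties at the limit were ordered by chromosome and start. A gene belonged to the bin of its midpoint, and counted as marked with 150 or more of its bases (all of them, if shorter) under domains. Gene bodies, symbols and biotypes came from the RefSeq table of assembly TAIR10.1. In 26 of 26 windows of 5 Mb, H3K4me3 domains fitted gene bodies best with no shift, among shifts up to 10 kb. Of 20764 loci in the mRNA table, 20677 matched. Unlisted genes were set to 0 for means, with a pseudocount of 1 on the log2 scale. Intervals are Clopper-Pearson for shares, exact Poisson for genes per bin and from order statistics for medians. The functions were tested on simulated data. Bins named were those with the most H3K27me3 (10), H3K4me3 (5) and genes (5), the 3 longest runs and those at the limit. Genes named were the 10 deepest, the 5 with most H3K4me3, list members and the neighbours in named bins. Families of 10 or more genes were ranked by share (the 8 highest and 4 lowest). The genes with over 90% of the body under H3K27me3, symbol stems, miRNA genes, single genes of families and the runs beyond the 3 longest were chosen after their values were seen. Sequences are not used here.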

Additional observations from a re-analysis of the deposited data

How the results depend on the processing

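No paired analysis was possible because no test was run and the replicates of a mark share 1 list. For the same reason no replicate could be left out. Of 74 alternative values, 47 stayed within the interval of the reported value and 27 moved beyond it. The order of members and other bins turned in 2 of them, gene density by touching genes and the limit of 3.5 Mb. In every alternative tried, members had less H3K4me3, fewer listed genes, lower depth and fewer genes with H3K4me3 than the other bins. Taking only the bins above the limit, or all bins tied at it (both chosen after seeing the data), and starting bins 10 kb later moved none of them.

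With 10-kb bins, H3K4me3 covered 4.57%, 30.1% of genes were listed, median depth was 2.51, the log2 difference was -1.65 (reported: -1.32) and 28.1% of genes had H3K4me3. With 50-kb bins these were 7.25%, 46.8%, a log2 difference of -1.02 and 40.5%. With the top 2.5% of bins they were 4.94%, 33.5%, -1.47 and 29.1%, and with the top 10% of bins 7.23%, 46.5%, -1.14 and 40.5%. A pseudocount of 0.1 gave a log2 difference of -2.42, and listed genes only gave -0.53. H3K27me3 domains at or above the median score gave 36.2% of genes with H3K4me3. H3K4me3 domains at or above it gave 2.45% coverage and 11.5% of genes, and a limit at 50% of the gene body gave 8.63% of genes. Gene density was 4.94 per bin without near members and 4.78 for genes that touch a member, which is above the 4.597 of other genes, so the order of the densities depends on that choice. Limits of 1.5 and 3.5 Mb gave 9.73% and 30.2% of members near, against 12.7% and 29.3% of the other bins.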
